A study of Mus musculus with 11 samples.

Results

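The step from the chronic to the exponential phase of TCL1A-driven T-cell leukemia was examined across all genes measured on whole-transcript mouse arrays. It comprised 8 of the 11 arrays of the series, 5 of the exponential phase and 3 of the chronic phase, taken by their titles, and 19937 genes, taken from the 34760 rows of the value table as the rows with exactly 1 gene symbol and, for a gene with several rows, the brightest. All 8 arrays held RNA of Lckpr-TCL1A+/- mice, which carry human TCL1A on a single allele under the proximal Lck promoter, a promoter active in the T-lineage from the thymus on. RNA came from spleen cells enriched by magnetic sorting for CD8+ T-cells. Mice counted as chronic had 30 to 70% tumor cells in blood and spleen and were on average 12 months old. Mice counted as exponential had over 80% tumor cells in blood and over 90% in spleen, were on average 15 months old, and doubled their blood lymphocytes in 12 days (SEM 0.8). Values of 3 further arrays, each a pool of CD3+ pan-T-cells of 3 age-matched wild-type C57BL/6 mice, are given as reference levels without a test. The labels do not say if a leukemia array stands for 1 mouse, and p-values therefore speak only of the spread among these arrays, some of which may be technical.

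TCL1A is an adaptor that binds the kinase AKT and strengthens its activation, and AKT in turn relays signals of the T-cell receptor and of cytokine receptors to growth, metabolism and survival. Forced expression of TCL1A in T-cells causes a slow expansion of mature T-cells that later accelerates, much as human T-cell prolymphocytic leukemia moves from an indolent to a rapidly rising lymphocyte count. In the spleen, T-cells lie among B-cells, macrophages, dendritic cells, granulocytes and, in mice, erythroid precursors. By definition the phases differ in the share of tumor cells and in age. In bulk RNA, fewer cells of a type and less RNA per cell cannot be told apart, and neither can tumor share, age and phase.

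Exponential replicate 4 went against its label as a CD8+ sample. Cd8a and Cd8b1, which encode the chains of the CD8 co-receptor, lay at log2 values of 2.96 and 4.33 on this array, against 7.94 to 8.20 and 8.37 to 9.21 on the other exponential arrays, while Cd4, the co-receptor of helper T-cells, lay at 5.18 against 2.15 to 2.44. Its value of Cd3e, a chain of the T-cell receptor complex, was 7.48, next to 7.24 to 7.45 on the others. Of all genes, 229 stood apart on this array by a gap of at least 1 on the log2 scale (160 above and 69 below the other 4), whereas the same rule found 2 to 17 genes on each other exponential array. Over all rows it correlated with the other exponential arrays at 0.944 to 0.946, and those correlated with each other at 0.951 to 0.969. Among the chronic arrays a looser rule without Dixon's test was used. It asked for 1 array at least 1 from the other 2, which lay within 1 of each other. By this rule 131 genes stood apart in replicate 1, 100 in replicate 2 and 257 in replicate 3. These counts cannot be set against those of the exponential arrays. Where leaving out an array moved a difference or a list count named below by over 1.5 times, the value without it is given for the genes and lists that the text describes most closely.

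**Figure D1:**
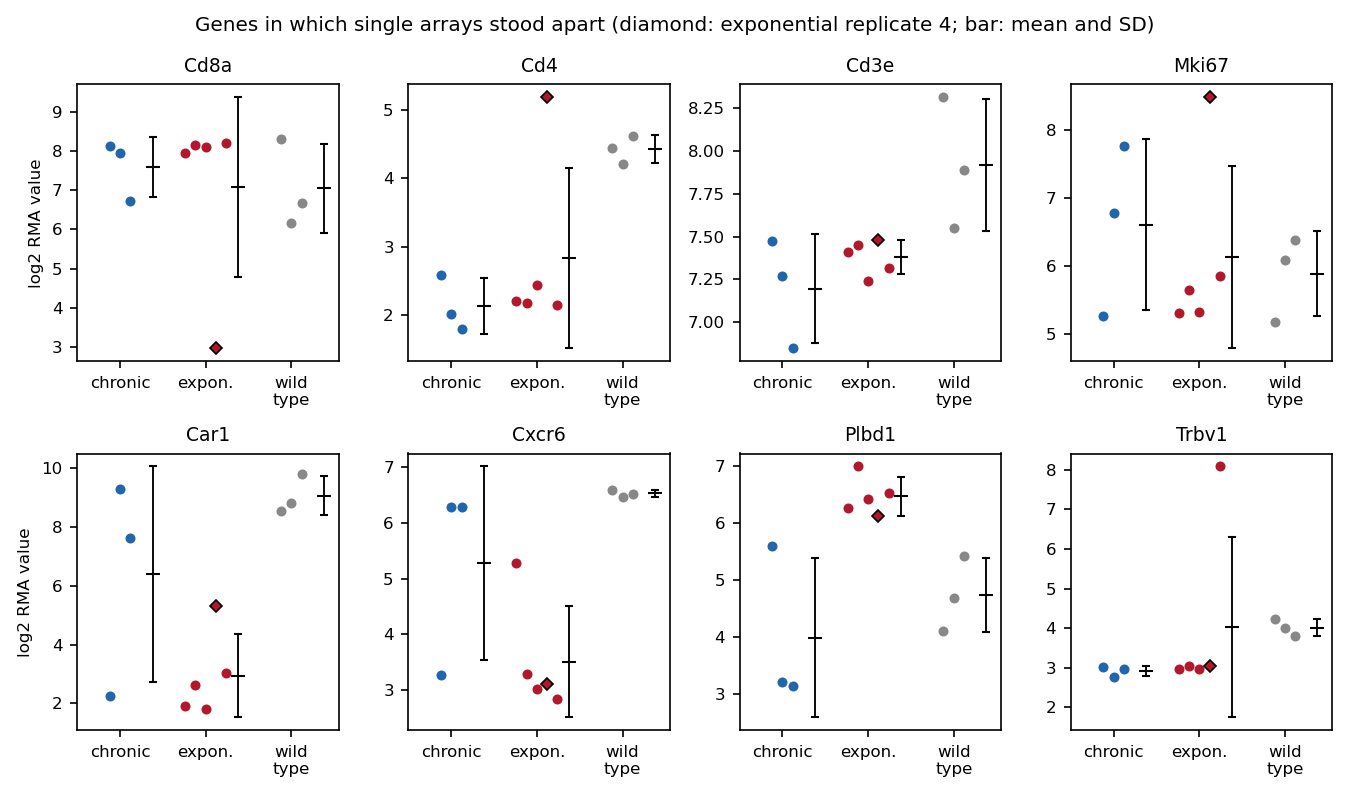
Log2 RMA values (vertical axes) of 8 genes per array, with the groups along the horizontal axes as chronic phase (n = 3, blue), exponential phase (n = 5, red) and wild type (n = 3, grey); the diamond marks exponential replicate 4, and the bar gives the mean and SD. Exponential replicate 4 has Cd8a at 2.96 and Cd4 at 5.18 but Cd3e at 7.48, chronic replicate 1 departs from the other chronic arrays in Car1, Cxcr6 and Plbd1, and exponential replicate 5 alone has Trbv1 at 8.10.

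The comparison asked which transcripts differed once the leukemia had accelerated. No gene was called: 0 of 19937 genes (0%) combined a limma adjusted p under 0.05 with a difference of 1.5-fold or more, and the smallest adjusted p was 0.236. At an unadjusted p under 0.05 there were 1246 genes (6.25%), of which 548 (2.75%) were higher and 698 (3.50%) lower in the exponential phase, and 215 of them had a fold of at least 1.5. Every exponential array lay above every chronic array in 458 genes (2.30%) and below every chronic array in 449 (2.25%). The median log2 difference over all genes was 0.0039, and the median SD between arrays was 0.171 in the exponential and 0.174 in the chronic phase. Large separations were few, and 64 genes were higher and 62 lower by at least 1 on the log2 scale. For a single gene whose groups do not overlap, the exact permutation test gives p = 0.0357, two-sided, the smallest that 5 against 3 arrays allow. All gene-level values below are log2 differences, exponential minus chronic, that did not pass the adjusted test, and a share of a gene list past the unadjusted threshold is to be read against the shares of all genes above.

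**Figure D2:**
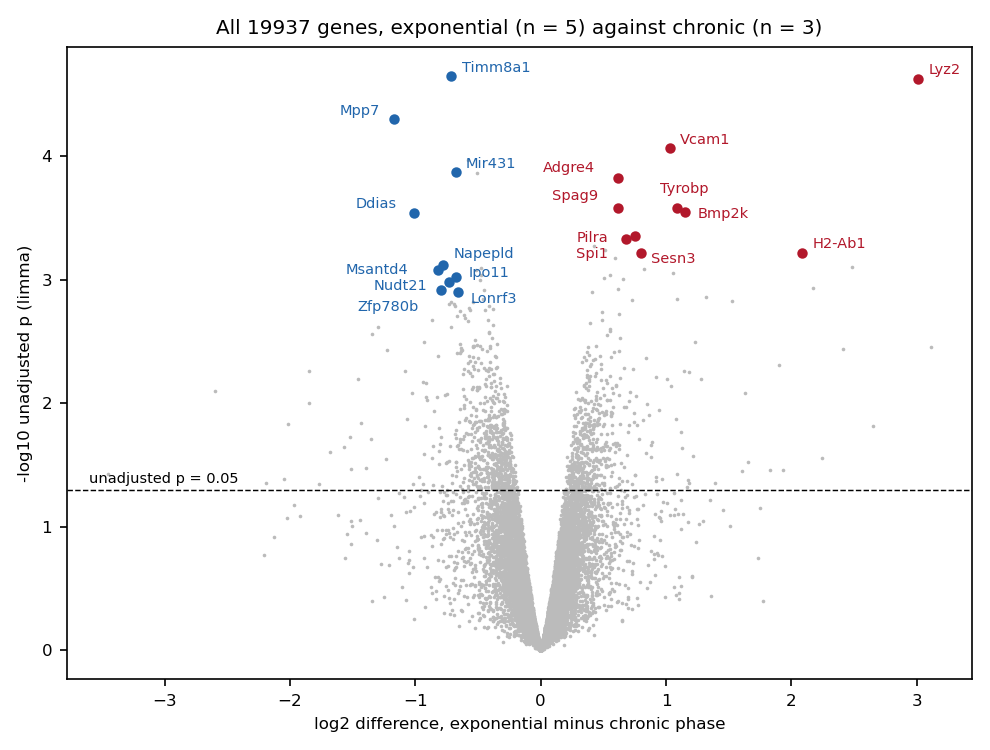
Log2 difference between the phases (horizontal axis, positive where the exponential phase is higher) against -log10 of the unadjusted limma p (vertical axis) for all 19937 genes; coloured points are the 10 genes of each direction with the smallest p and a fold of at least 1.5. Lyz2 lies farthest to the upper right at a difference of 3.01, and Timm8a1 and Mpp7 lead the lower genes at -0.71 and -1.17.

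Several of the genes with the smallest p on the higher side are known from macrophages and monocytes. Lyz2, which encodes the lysozyme of myeloid cells, lay at 6.05, 4.84, 5.74, 6.36 and 5.86 in exponential replicates 1 to 5 and at 2.54, 3.62 and 2.13 in chronic replicates 1 to 3. All 5 exponential arrays were thus above the chronic ones and above the wild-type pools (2.35 to 3.31). The means were 5.77 ± 0.57 (SD, n = 5) and 2.76 ± 0.77 (SD, n = 3), a log2 difference of 3.01 (SE 0.39, limma adjusted p = 0.236). Vcam1, an adhesion molecule of splenic macrophages and stroma, lay at 3.29, 3.28, 3.22, 2.77 and 3.51 against 2.21, 2.07 and 2.26, a difference of 1.03 (SE 0.16). Without exponential replicate 4 its adjusted p was 0.0638 by limma, the closest to the threshold of the named genes in that setting. Tyrobp, the DAP12 adaptor of myeloid and NK-cell receptors, lay at 5.06 to 5.75 against 3.95 to 4.65 (difference 1.09, SE 0.19). Further differences with no overlap were found in Adgre4, an adhesion receptor of macrophages (0.62), Pilra, an inhibitory myeloid receptor (0.75), Mpeg1, the perforin-like protein of macrophages (1.32), the heme oxygenase gene Hmox1 (0.51), and Spi1, which encodes the myeloid transcription factor PU.1 (0.68, 2.38 to 2.91 against 1.80 to 2.10).

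Of 19 macrophage markers measured, 7 had an unadjusted p under 0.05 and a higher value and 0 a lower value, 17 differences were positive, and the list median was 0.34. The list median by array was 2.29 to 2.59 in the exponential and 2.08 to 2.12 in the chronic phase, without overlap. Summed over the 19 markers on the linear scale, the signal was 167 to 211 in the exponential phase, 99.1 to 113 in the chronic phase and 111 to 122 in wild type. Such a sum is weighted toward brighter genes such as Lyz2. The defining receptor genes Csf1r and Adgre1 stayed low, at 2.07 to 2.62 and 2.31 to 2.97 in the exponential phase, close to the median of all rows of the table (2.30), as did Cd14 (1.86 to 2.49) and C1qa (1.97 to 2.20). Some genes named above as higher were also near that median: Adgre4 (2.30 to 2.56), Pilra (2.29 to 2.92), Hmox1 (2.33 to 2.67) and Spi1 (2.38 to 2.91). Hmox1 lay at 2.48 to 2.63 in the wild-type pools. Of the 19 markers, 9 had a mean level below the median of the table. Without exponential replicate 4, 8 of 19 were higher and 0 lower, against 3.08% and 3.99% of all genes in that setting. In it 5 lay above and 1 below every chronic array, against 3.40% and 3.82%.

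The sequence before the Lyz2 start is shown because this gene had the smallest p among the higher genes and because the gene of the factor PU.1, which binds purine-rich sites with a GGAA core in myeloid promoters, lay higher on the same arrays. It is the 150 bases before the start on the minus strand, chr10:117282273-117282422, from RefSeq on GRCm38.p6, with a match to AGGAAGT on either strand in capitals.

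Lyz2: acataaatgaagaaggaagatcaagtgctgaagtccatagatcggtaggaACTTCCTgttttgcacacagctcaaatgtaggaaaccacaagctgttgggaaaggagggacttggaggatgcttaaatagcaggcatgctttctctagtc

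The match lies from base -100 to base -94, counted back from the start, and is read on the opposite strand. Over the 300 bases from 250 before to 50 after the start, 9.35% of all 32851 promoters in the RefSeq table held AGGAAGT on either strand. A match is a description of the letters only.

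Some neutrophil genes were higher on every exponential array as well, and most of all on replicate 4, while primary granule genes were not. S100a9, a subunit of the calcium-binding protein calprotectin, lay at 6.58, 4.97, 5.13, 8.83 and 5.23 against 2.67, 2.97 and 3.45, a difference of 3.11 (SE 0.80). Its partner S100a8 lay at 4.81, 3.86, 3.53, 7.89 and 3.51 against 2.13, 2.08 and 1.99, a difference of 2.66 (SE 0.89). Ngp, a protein of secondary granules, lay at 2.92 to 6.11 against 2.23 to 2.64. For these 3 genes the groups did not overlap, but the level of replicate 4 was apart from the rest. Without it the differences were 2.44 (SE 0.37) for S100a9, 1.86 (SE 0.29) for S100a8 and 1.14 (SE 0.36) for Ngp, with limma adjusted p of 0.205, 0.205 and 0.628. Of 16 neutrophil markers, 5 were higher and 0 lower at the unadjusted threshold, with a list median of 0.38, and 0.20 without replicate 4. Their summed signal was 108 to 864 in the exponential phase, 108 to 212 without replicate 4, and 66.8 to 92.7 in the chronic phase. This linear sum is weighted toward bright genes such as S100a9 and S100a8, most of all on replicate 4. The primary granule genes Mpo, Elane, Prtn3 and Ctsg had negative differences (-0.67, -0.14, -0.12 and -0.46), and each overlapped between the groups.

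Genes of antigen presentation on MHC class II, which display peptides to CD4 T-cells on B-cells, macrophages and dendritic cells, were higher in the exponential phase. H2-Ab1, a beta chain, lay at 6.59, 5.33, 6.15, 5.29 and 6.12 against 3.68, 3.00 and 4.73 (difference 2.09, SE 0.41). H2-Aa, its alpha chain partner, lay at 7.49, 6.59, 7.66, 6.56 and 7.07 against 6.36, 3.01 and 4.61 (difference 2.41, SE 0.63). H2-Eb1 lay at 5.10, 3.55, 4.43, 3.84 and 4.48 against 3.28, 2.80 and 3.07 (difference 1.23, SE 0.31). The groups did not overlap in these 3 genes, and the wild-type pools spread across both, from 4.68 to 7.51 for H2-Aa. Cd74, the invariant chain that escorts class II molecules, overlapped between the groups (3.51 to 5.36 against 2.91 to 3.81, difference 1.09, SE 0.45). Of 9 class II genes, a list added after the values were seen, 8 were higher at the unadjusted threshold, and all 9 differences were positive with a median of 1.09. Ciita, the master regulator of the class II genes, was the exception at that threshold (0.20, SE 0.14). Chronic replicate 1 held H2-Aa at 6.36, close to the exponential arrays, and without that array the H2-Aa difference was 3.27, while without chronic replicate 2 it was 1.59.

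Class II promoters share an X box and a Y box, which are read together by a common set of factors, so the 150 bases before the start are shown for H2-Aa and H2-Eb1, chains of both class II molecules described above, with matches to GATTGG, the core of the Y box, and to CTNGCAAC, an X box form, in capitals. H2-Aa is on the minus strand at chr17:34287824-34287973 and H2-Eb1 on the plus strand at chr17:34305717-34305866 of GRCm38.p6.

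H2-Aa: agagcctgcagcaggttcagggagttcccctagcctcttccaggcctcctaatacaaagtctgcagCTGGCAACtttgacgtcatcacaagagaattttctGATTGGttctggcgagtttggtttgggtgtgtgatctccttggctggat

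H2-Eb1: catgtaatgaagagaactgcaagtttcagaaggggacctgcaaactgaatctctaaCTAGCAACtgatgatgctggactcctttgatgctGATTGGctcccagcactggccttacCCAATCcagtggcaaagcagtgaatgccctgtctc

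In both, the X box form lies before the Y box core, at base -84 in H2-Aa and at base -94 in H2-Eb1, with the Y box core at bases -49 and -60. H2-Eb1 holds a further Y box core on the opposite strand at base -35. Of all promoters in the table, 16.1% held GATTGG and 3.42% held CTNGCAAC on either strand within the 300 bases searched.

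B-cell and dendritic cell markers were on the same side. Of 15 B-cell markers all had a positive difference, with a median of 0.34, and 2 were higher at the unadjusted threshold. Without exponential replicate 4, 4 were higher, against 3.08% of all genes in that setting. Cr2, a complement receptor of B-cells, lay at 5.84, 2.66, 5.87, 2.72 and 3.57 against 2.45, 2.04 and 2.10 (difference 1.94, SE 0.78), so its level was carried by exponential replicates 1 and 3. The B-cell transcription factor gene Pax5 showed the same split, at 3.61 and 3.68 in those replicates and 2.66 to 3.39 in the others, against 2.30 to 2.81. Their summed signal was 140 to 621 in the exponential and 97.1 to 286 in the chronic phase, and the ranges overlapped. Of 15 dendritic cell markers, which include 5 of the class II list, 5 were higher and 0 lower. These were the class II genes H2-Aa, H2-Ab1, H2-Eb1 and Cd74, already counted above, and Flt3. No other dendritic cell marker outside class II passed the unadjusted threshold. Flt3, the receptor of a dendritic cell growth factor, lay at 2.72 to 3.17 against 2.60 to 2.70 (difference 0.30, SE 0.11). Some splenic dendritic cells carry CD8 themselves. Whether the RNA of these markers came with the T-cell fraction or from the leukemia was not tested.

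**Figure D3:**
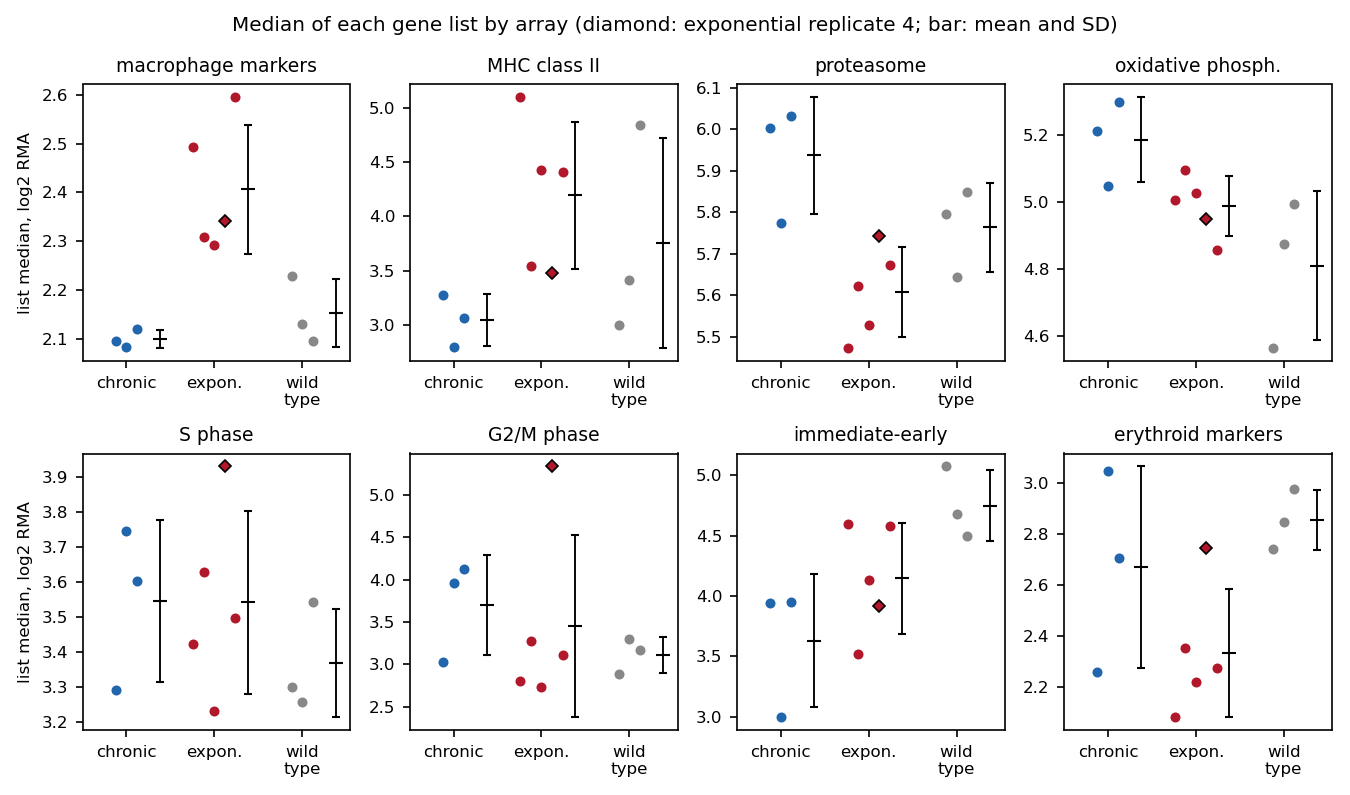
Median log2 RMA value over the members of 8 gene lists (vertical axes) per array, with the groups along the horizontal axes as chronic phase (n = 3), exponential phase (n = 5) and wild type (n = 3); the diamond marks exponential replicate 4, and the bar gives the mean and SD. Macrophage markers and class II genes lie above and proteasome genes below the chronic arrays on every exponential array, and the G2/M list lies at 5.34 on exponential replicate 4 against 2.73 to 3.28 on the others.

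Some genes of naive and memory T-cells that home to lymph nodes lay higher and some of effector cells lower. Ccr7, the chemokine receptor that guides T-cells into lymph nodes, lay at 7.50, 6.03, 7.22, 5.27 and 7.34 against 5.44, 4.58 and 4.30. Only exponential replicate 4 overlapped the chronic arrays, below chronic replicate 1. The difference was 1.90 (SE 0.52), and 2.25 (SE 0.38, limma adjusted p = 0.298) without replicate 4. B-cells also use Ccr7 and Klf2, and the B-cell adaptor gene Bank1 lay at 7.12, 3.74, 6.95, 4.70 and 5.96 against 5.53, 2.75 and 3.53. Both Ccr7 and Bank1 were highest on exponential replicates 1, 3 and 5, and the part of B-cells in the Ccr7 and Klf2 values was not tested. Klf2, a transcription factor of quiescent T-cells that maintains homing receptors, lay at 5.71, 5.12, 5.64, 5.01 and 5.85 against 4.82, 4.56 and 4.82 (difference 0.74, SE 0.20), without overlap. Il7r, the receptor for the survival cytokine IL-7, stood apart on exponential replicate 5, at 5.32 against 8.39 to 9.13 on the other exponential and 8.99 to 10.09 on the chronic arrays, a difference of -1.44 with and -0.78 without that array. Of 14 genes of this list, 2 were higher and 0 lower at the unadjusted threshold, and 9 differences were positive.

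Prdm1, which encodes the effector and plasma cell factor Blimp-1, lay at 3.45, 2.89, 3.36, 2.39 and 3.10 against 3.50, 4.71 and 4.15 (difference -1.08, SE 0.30), without overlap. The plasma cell marker Jchain lay at 8.06, 6.24, 8.13, 7.70 and 7.77 against 6.44, 9.49 and 10.20. Among the chronic arrays both were lowest on replicate 1, but Prdm1 was highest on replicate 2 and Jchain on replicate 3. The part of plasma cells in the Prdm1 values was not tested. Id2, a regulator of effector CD8+ T-cells, lay at 6.47, 5.72, 5.87, 5.90 and 5.59 against 6.43, 7.32 and 6.77 (difference -0.93, SE 0.24). The list of 21 effector and cytotoxic genes was mixed, with 1 higher and 3 lower and a median of -0.12. Without exponential replicate 4, which stood apart in this list, 2 were higher and 3 lower and the median was 0.10. Of all genes, 3.08% were higher and 3.99% lower in that setting. Gzmb, the gene of granzyme B, a protease of cytotoxic granules, lay at 2.48 on exponential replicate 4 and at 5.43 to 8.47 on the others, against 7.22 ± 0.31 (SD, n = 3) in the chronic phase. Its difference was -0.92 with and 0.03 without that array. Lamp1, a lysosomal membrane protein exposed during degranulation, lay at 5.02 to 5.90 against 4.78 to 5.12 (difference 0.50, SE 0.18), with an overlap.

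NK-cell receptor genes differed from each other. Klrd1, the CD94 chain of an inhibitory receptor pair on NK-cells and CD8+ T-cells, lay at 6.85, 8.06, 7.15, 3.39 and 6.24 against 8.10, 8.49 and 8.56. All exponential arrays were lower, by 2.05 on average (SE 0.86) and by 1.31 (SE 0.36) without replicate 4. Cd244a, the SLAM-family receptor 2B4, lay at 2.16 to 2.58 against 2.01 to 2.09 (difference 0.36, SE 0.12), and Fcer1g, an adaptor of Fc receptors, at 2.09 to 3.43 against 1.95 to 2.16 (difference 0.61, SE 0.27). Of 17 genes of the list, 3 were higher and 2 lower. The 3 higher were Cd244a, Fcer1g and Tyrobp, the last already described above with the myeloid genes. The defining NK-cell genes Ncr1 and Klrb1c lay near the median of the table on all 8 arrays, at 1.56 to 2.14 and 1.59 to 2.09. The list median was 5.06 on exponential replicate 2 and 2.16 to 3.35 on the other leukemia arrays.

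Most immediate-early genes of T-cell activation lay higher in the exponential phase, and few passed the unadjusted threshold. Of 24 immediate-early genes, which are transcribed within minutes of receptor signals, 20 had a positive difference with a median of 0.38, and 2 were higher (Egr2 and Dusp5) and 1 lower (Ier3) at the unadjusted threshold. Dusp5 had a difference of 0.44, and 0.28 without exponential replicate 1, and Ier3 one of -0.48, and -0.27 without chronic replicate 3. Egr2, a transcription factor induced by receptor signals, lay at 4.57, 2.88, 3.84, 4.28 and 4.90 against 3.27, 2.89 and 3.35 (difference 0.92, SE 0.39), so replicate 2 lay with the chronic arrays. Dusp1, a phosphatase of MAP kinases, had a difference of 1.06 (SE 0.48), which was 0.50 without chronic replicate 2. The immediate-early list median by array overlapped between the phases (3.52 to 4.60 against 2.99 to 3.95). In the wild-type pools it was 4.49 to 5.08. The 26 genes of the AKT and TCL1 list did not lean to a side, with 15 positive and 11 negative differences and a median of 0.02. At the unadjusted threshold 3 were higher and 0 lower. Tsc1, a brake on mTOR signalling downstream of AKT, lay at 2.72 to 3.34 against 2.42 to 2.69 (difference 0.55, SE 0.16). The others were Phlpp1, a phosphatase that inactivates AKT (0.35, SE 0.12), and Tcl1b5, a mouse relative of TCL1A (0.53, SE 0.16). Akt1 lay at 2.83 to 3.26 against 2.68 to 2.77 (difference 0.25, SE 0.12), without overlap. The mouse gene Tcl1 lay below the median of the table on all arrays, at 1.49 to 1.81 against 1.74 to 1.80. The rows measure mouse genes, so the human transgene was not analysed here. Sesn3, a stress-induced inhibitor of mTOR signalling, was among the 10 higher genes with the smallest p and at least a 1.5-fold difference, at 5.53 to 5.99 against 4.63 to 5.26 (difference 0.80, SE 0.16).

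**Figure D4:**
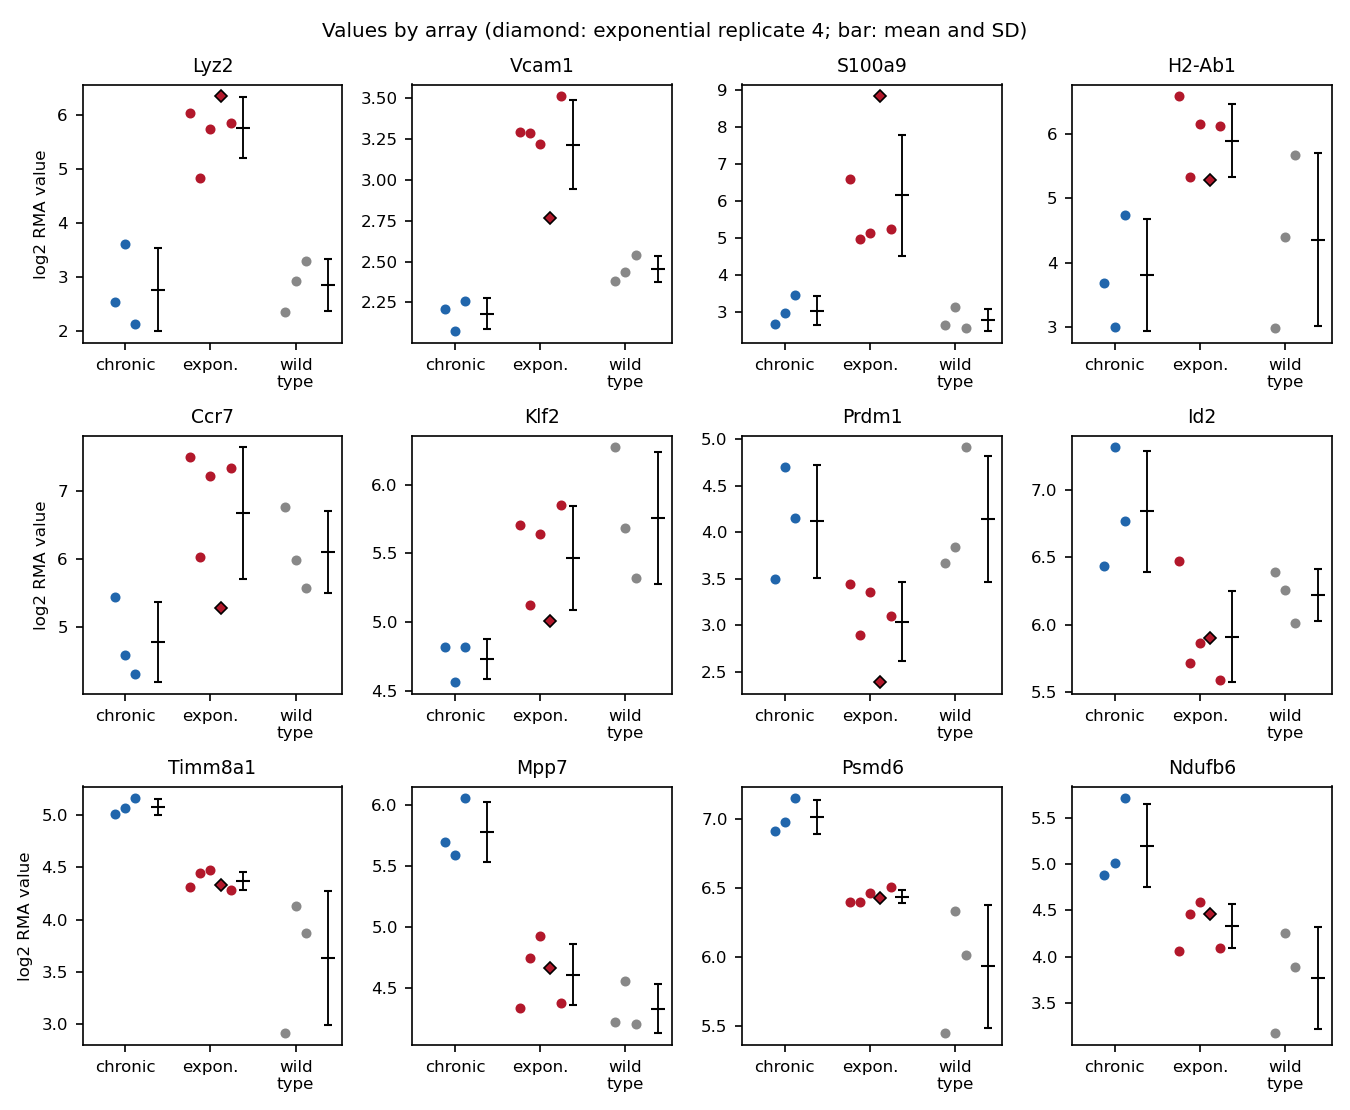
Log2 RMA values (vertical axes) of 12 genes per array, with the groups along the horizontal axes as chronic phase (n = 3), exponential phase (n = 5) and wild type (n = 3); the diamond marks exponential replicate 4, and the bar gives the mean and SD. The exponential arrays lie above the chronic ones in Lyz2, Vcam1, S100a9, H2-Ab1 and Klf2, below them in Prdm1, Timm8a1, Mpp7, Psmd6 and Ndufb6, and overlap them by 1 array in Ccr7 and Id2.

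On the lower side, the smallest p belonged to Timm8a1, which encodes a chaperone for protein import into the mitochondrial inner membrane. It lay at 4.31, 4.45, 4.47, 4.33 and 4.29 against 5.01, 5.07 and 5.16, a difference of -0.71 (SE 0.09, limma adjusted p = 0.236) with an SD of 0.08 in the exponential (n = 5) and 0.07 in the chronic phase (n = 3). A second row of this gene, dimmer by mean level, gave a difference of 0.25. Mpp7, a scaffold protein of cell polarity, lay at 4.34, 4.75, 4.93, 4.67 and 4.38 against 5.70, 5.59 and 6.06 (difference -1.17, SE 0.17). A second, dimmer row of Mpp7 gave -0.23. The exponential arrays were close to the wild-type pools in Mpp7 (4.21 to 4.56), and the chronic arrays lay above both. Ddias, a suppressor of apoptosis after DNA damage, lay at 2.38 to 2.88 against 3.35 to 4.10 (difference -1.01, SE 0.18). Ipo11, a nuclear import receptor (-0.67), Nudt21, a factor of mRNA cleavage and polyadenylation (-0.73), and Napepld, an enzyme that makes N-acylethanolamines (-0.78), did not overlap between the phases either, although a second row of Nudt21 gave -0.05.

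Most proteasome genes had lower values in the exponential phase. Of 40 genes for subunits of the proteasome, which degrades ubiquitin-tagged proteins, 35 had a negative difference with a median of -0.21, and 9 were lower and 1 higher at the unadjusted threshold. Every exponential array was below every chronic array in 7 of them and above in 0, against 2.25% and 2.30% of all genes. Psmd6, a subunit of the regulatory particle, lay at 6.40, 6.40, 6.46, 6.43 and 6.50 against 6.92, 6.98 and 7.15 (difference -0.58, SE 0.09), and the gap between the phases was wider than the range within either. Psmd7 lay at 5.84, 5.86, 5.72, 6.13 and 5.64 against 6.28, 6.21 and 6.32 (difference -0.43, SE 0.12), and Psmd10 at 5.06 to 5.39 against 5.54 to 6.25 (difference -0.58, SE 0.16). Psmd14, the deubiquitinase of the lid (-0.42), and the ATPase Psmc6 (-0.33) did not overlap either. The 21 regulatory particle genes, a division made after the values were seen, had a median of -0.27 with 6 lower and 0 higher, and the 19 core particle genes a median of -0.18 with 3 lower and 1 higher. That single higher gene was Psmb9, an interferon-induced catalytic subunit (5.09 to 5.60 against 4.92 to 5.15, difference 0.33, SE 0.13). Without exponential replicate 4, 13 of the 40 were lower and 11 lay below every chronic array, against 3.99% and 3.82% of all genes.

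Genes of oxidative phosphorylation and of the mitochondrial ribosome leaned the same way. Of 88 genes of the respiratory chain, 9 were lower and 0 higher at the unadjusted threshold, 58 differences were negative and the median was -0.13. Without exponential replicate 4, 7 were lower and 2 higher, against 3.99% and 3.08% of all genes in that setting. Ndufb6, a subunit of complex I, lay at 4.07, 4.46, 4.59, 4.46 and 4.10 against 4.88, 5.01 and 5.71 (difference -0.86, SE 0.20), Ndufs1, the iron-sulfur subunit that accepts electrons early in complex I, at 4.62 to 5.50 against 5.67 to 5.90 (difference -0.56, SE 0.19), and Atp5h, a subunit of ATP synthase, at 7.49 to 7.85 against 7.98 to 8.02 (difference -0.34, SE 0.10). These 3 did not overlap between the phases. Of 77 mitochondrial ribosomal protein genes, 6 were lower and 1 higher with a median of -0.07, and Mrps22 lay at 4.48 to 5.20 against 5.37 to 5.43. Of 53 cytoplasmic ribosomal protein genes 3 were higher (5.66%, against 2.75% of all genes) and 0 lower, with a median of 0.09. Their list median by array overlapped between the phases (8.97 to 9.32 against 8.77 to 9.24). Rpl30 lay at 6.22 to 6.62 against 5.88 to 6.26 (difference 0.39, SE 0.13), and Rpl21, whose 9 rows disagreed in sign, had a difference of 1.13 in its brightest row and -0.04 as the mean of its rows. Of 20 glycolysis and hypoxia genes 2 were higher, Hif1a, the hypoxia-inducible factor (0.62, SE 0.19), and Pfkfb3, a regulator of glycolysis (0.25, SE 0.11).

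Cell-cycle genes depended on exponential replicate 4. Mki67, a marker of dividing cells, lay at 5.31, 5.65, 5.32, 8.48 and 5.86 against 5.27, 6.78 and 7.76, and Ccna2, the cyclin of S and G2 phase, at 3.93, 5.11, 4.00, 7.02 and 4.61 against 4.71, 6.18 and 6.44. The differences were -0.48 and -0.84 with all arrays and -1.07 and -1.36 without replicate 4. Replicate 4 was the highest of the 8 arrays in both, and the other exponential arrays lay below the middle chronic array. With all arrays, 26 of 29 G2/M genes had a negative difference with a median of -0.21, and 0 passed the unadjusted threshold in either direction. Without replicate 4, the median was -0.66, and 15 of 29 were lower at that threshold against 3.99% of all genes. In that setting 4 lay below every chronic array, against 3.82% of all genes. Of 28 S-phase genes, 0 were higher and 1 lower with all arrays (median -0.14). Without replicate 4 (median -0.28), 10 were lower and 7 below every chronic array, against 3.99% and 3.82% of all genes. Chaf1b, a subunit of the chromatin assembly factor of DNA replication, did not depend on that array, at 2.38 to 2.51 against 2.65 to 2.92 (difference -0.32, SE 0.09). Rrm2, the small subunit of ribonucleotide reductase, had a difference of -1.13 (SE 0.51) with and -1.45 (SE 0.40) without it. Chronic replicate 1 had the lowest G2/M list median of the chronic arrays, 3.03 against 3.96 and 4.12, close to the 2.73 to 3.28 of exponential replicates 1, 2, 3 and 5.

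Genes of the DNA damage response and of chromatin included few that separated the phases. Chek2, which encodes the checkpoint kinase activated by ATM, lay at 2.15, 2.30, 2.22, 2.36 and 2.16 against 2.70, 2.79 and 2.56 (difference -0.45, SE 0.10), without overlap but near the median of the table. Lig4, the ligase of non-homologous end joining, lay at 4.04 to 4.39 against 4.80, 4.27 and 5.68 (difference -0.67, SE 0.26), a difference of -0.29 without chronic replicate 3. These were the 2 of 30 genes past the unadjusted threshold, both lower, with a list median of -0.04. Exponential replicate 4 stood apart in this list, and without it 5 of 30 were lower and 0 higher, against 3.99% of all genes lower, with a median of -0.11. Atm itself, the apical kinase of the response to DNA breaks, did not separate the phases, at 5.72 to 6.17 against 5.46 to 6.17 (difference -0.02, SE 0.18). Of 43 chromatin modifiers 5 were higher and 1 lower, with a median of 0.10. Hdac8, a histone deacetylase (0.37, SE 0.12), and Chd2, a chromatin remodeler (0.36, SE 0.13), did not overlap, while Tet2, which oxidizes methylated cytosine (0.53, SE 0.18), overlapped by chronic replicate 1 and had a difference of 0.28 without chronic replicate 3.

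Of 302 microRNA genes, a list added after the values were seen, 6 were higher and 6 lower at the unadjusted threshold (4.0% together), below the share of all genes, and 228 had a mean level below the median of the table. Mir431 had the smallest p, at 2.25, 1.94, 1.97, 2.03 and 1.94 against 2.58, 2.68 and 2.85 (difference -0.68, SE 0.11). The exponential and the wild-type arrays (1.93 to 2.24) were all at or below the median of the table, and the chronic arrays were a little above it. The array row measures the precursor gene and not the mature forms, whose sequences from RefSeq (GRCm38.p6, plus strand) are shown with the seed, bases 2 to 8, in capitals because the arms do not share a seed. The 5p arm lies at chr12:109590459-109590479 and the 3p arm at chr12:109590502-109590523.

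mmu-miR-431-5p: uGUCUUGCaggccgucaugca

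mmu-miR-431-3p: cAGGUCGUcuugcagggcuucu

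Mir25 was also lower without overlap (2.44 to 2.80 against 2.95 to 3.00, difference -0.41), and Mir30d was higher (5.32 to 6.29 against 4.98 to 5.44, difference 0.62, SE 0.23), with an overlap. None of 13 genes of the microRNA machinery passed the unadjusted threshold.

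Some genes of erythroid precursors and plasma cells, and the platelet gene Ppbp, varied widely among the chronic arrays. Car1, the carbonic anhydrase of red-cell precursors, lay at 1.92, 2.62, 1.82, 5.29 and 3.03 in the exponential phase and at 2.27, 9.27 and 7.63 in the chronic phase. Chronic replicate 1 thus lay with the exponential arrays, and the mean difference of -3.45 (SE 1.42) became -5.52 without it and -2.01 without chronic replicate 2. Of 15 erythroid markers, 13 had a negative difference with a median of -0.31, and 2 were lower at the unadjusted threshold. The summed signal of the 15 markers was 122 to 276 in the exponential and 164 to 1114 in the chronic phase. On the linear scale this sum is weighted toward bright genes such as Car1. Ermap lay at 2.87, 4.43 and 3.92 in the chronic phase, while Gata1 (2.07 to 2.62) and Ank1 (2.25 to 2.95) were nearer to the median of the table. Immunoglobulin segments followed this split, and Igkv5-43, a kappa variable segment, lay at 1.63 to 4.56 against 2.34, 5.07 and 6.63 (difference -2.19, SE 0.94, and -3.36 without chronic replicate 1 or -1.22 without chronic replicate 3), while 3 of 11 segments were lower and 0 higher. Ppbp, a platelet chemokine, lay at 2.06 to 3.92 against 1.66, 5.94 and 6.29, and its difference of -1.97 was -3.45 without chronic replicate 1 and -1.14 without chronic replicate 3. The platelet list did not share this spread, with a median by array of 2.07 to 2.20 against 2.02 to 2.29. Cxcr6, a chemokine receptor of effector T-cells, lay at 2.85 to 5.28 against 3.28, 6.29 and 6.28, a difference of -1.77, and of -2.77 without chronic replicate 1. Plasma cell markers (11 measured) included 2 lower, Prdm1 and Mzb1, the latter a chaperone of antibody assembly (1.65 to 2.67 against 2.50, 2.78 and 4.17, difference -0.86, and -0.35 without chronic replicate 3).

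Chronic replicate 1 also decided the calls of single genes. Without it, the limma fit called 2 of 19937 genes, both chosen for mention after their values were seen. Plbd1, a phospholipase B-like protein of myeloid cells, lay at 6.27, 7.01, 6.43, 6.12 and 6.53 against 5.60, 3.21 and 3.15, with a difference of 2.49 (SE 0.51, adjusted p = 0.629) on all arrays and 3.29 (adjusted p = 0.00547) without chronic replicate 1. Tjp1, a scaffold protein of tight junctions, lay at 1.98, 2.32, 1.96, 1.66 and 1.95 against 1.76, 4.60 and 4.14, with a difference of -1.52 (SE 0.54, adjusted p = 0.774) on all arrays and -2.40 (adjusted p = 0.0119) without it, and of -0.97 without chronic replicate 2. In both genes chronic replicate 1 lay nearer to the exponential than to the other chronic arrays.

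**Figure D5:**
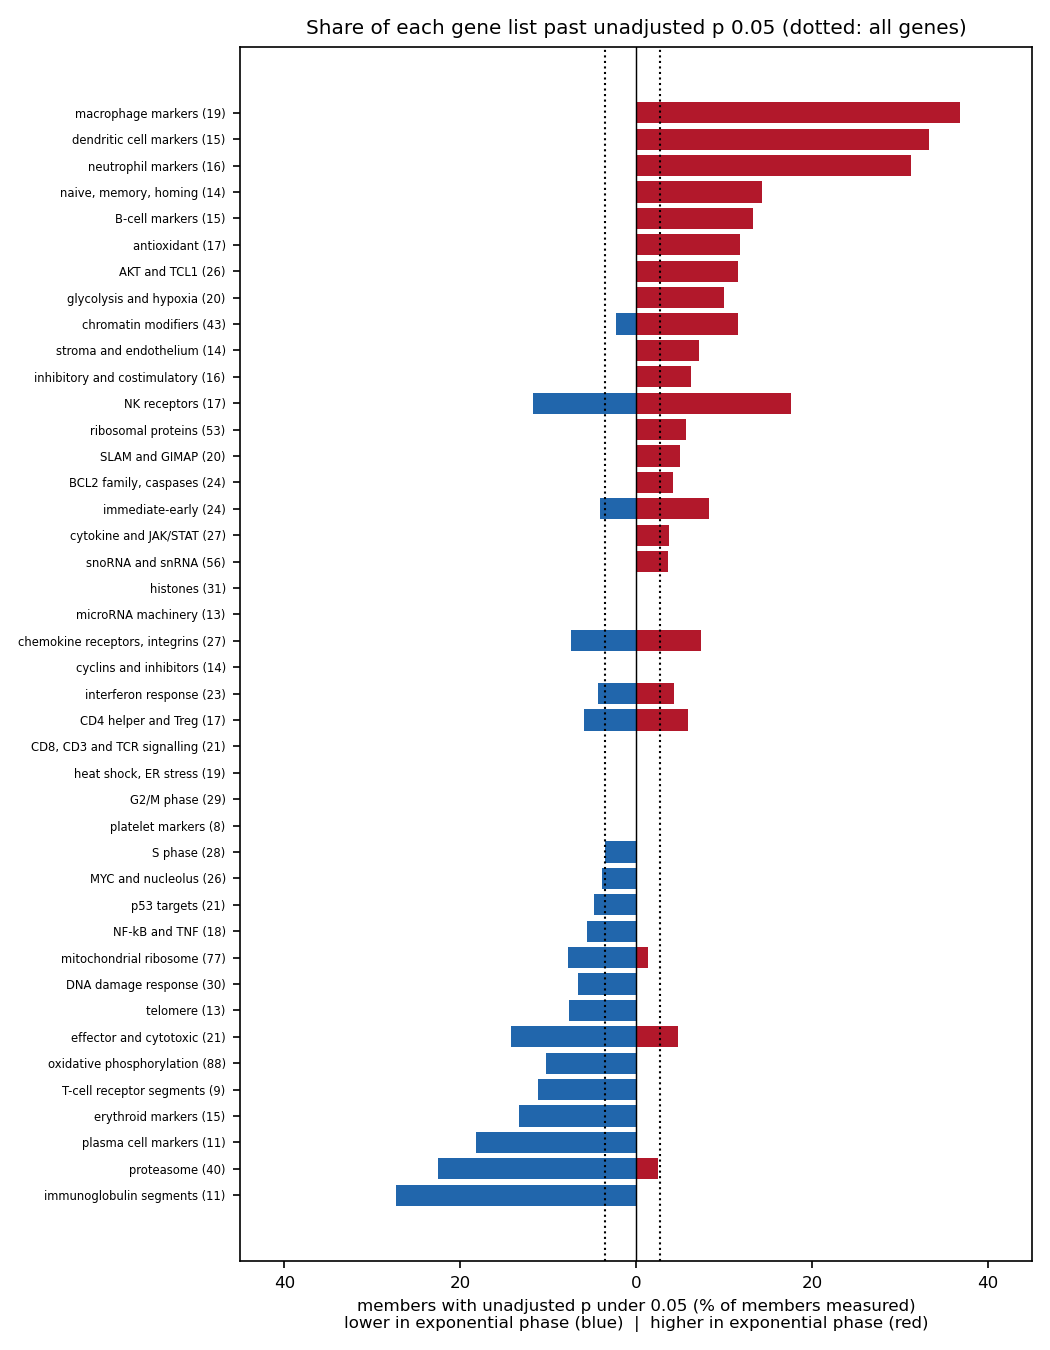
Share of the measured members of each of 42 gene lists with an unadjusted limma p under 0.05 (horizontal axis, % of members; red to the right, higher in the exponential phase, and blue to the left, lower), with the number of members in brackets; the dotted lines mark the shares of all genes, 2.75% higher and 3.50% lower. Macrophage, dendritic cell and neutrophil markers lie at the higher end with 7 of 19, 5 of 15 and 5 of 16, and proteasome genes and immunoglobulin segments at the lower end with 9 of 40 and 3 of 11. The 5 dendritic cell genes are Flt3 and the class II genes H2-Aa, H2-Ab1, H2-Eb1 and Cd74.

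Most of the genes followed for their roles in T-cell responses and growth overlapped between the phases. Ctla4, an inhibitory receptor, lay at 7.57, 4.07, 6.28, 3.85 and 6.87 against 6.29, 4.77 and 6.13, and both phases lay below every wild-type pool (9.62 to 10.37). The pools held CD3+ pan-T-cells and the leukemia arrays CD8-enriched cells, so sorting and leukemia cannot be told apart in such a gap. Slamf6, a receptor of T-cell contacts, lay at 4.42 to 6.61 against 3.99 to 5.49 (difference 0.28, SE 0.53), and Gimap5, a survival factor of lymphocytes, at 2.30 to 2.59 against 2.65 to 2.76 (difference -0.21, SE 0.10), without overlap. The oncogene Myc lay at 8.47, 8.40, 9.42, 7.32 and 8.48 against 8.39, 8.45 and 7.88, all above the wild-type pools (6.81 to 7.10). Tnf, the inflammatory cytokine, had a difference of -0.05 (SE 0.23), and Cd83, an activation marker, of 0.77 (SE 0.40), and 0.49 without chronic replicate 2. Trbv1, a variable segment of the T-cell receptor beta chain, lay at 8.10 on exponential replicate 5 and at 2.78 to 3.05 on the other 7 leukemia arrays, against 3.81 to 4.23 in the wild-type pools.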

How the data were processed

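RNA of 8 leukemia samples and 3 wild-type pools had been hybridised to Affymetrix whole-transcript mouse arrays. The authors used the R package affy for RMA background correction and quantile normalization. Its version is not stated in what was read here. The authors deposited log2 values, judged from their range (0.775 to 13.5, median 2.30). No detection calls were used, and precision rests on the number of arrays.

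Of 34760 rows, 21640 carried 1 gene symbol in the platform annotation, 1321 several and 11799 none. Entrez identifiers of 21553 rows matched RefSeq (GRCm38.p6). The brightest row by mean over 11 arrays represented each of 19937 genes.

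The 5 exponential and 3 chronic arrays were fitted with limma 3.58.1 (lmFit, eBayes) in R 4.3.3, with Benjamini-Hochberg adjustment over all genes. Calls needed an adjusted p under 0.05 and at least a 1.5-fold difference. The fit was tested on simulated data. Lists of genes are described by counts and medians without a test. Members and lists, 42 in all, were chosen with earlier results of these data known, and 5 more after seeing the values. No gene being called, named are the 10 genes of smallest p per direction with a fold of at least 1.5, leaving out receptor and immunoglobulin segments, small RNAs of their own list and clone names, up to 4 members of each list with the smallest p, and 16 genes of interest to the study or to its cell types (Atm, Car1, Cd3e, Cd4, Cd83, Cd8a, Cd8b1, Ctla4, Gimap5, Gzmb, Lyz2, Mki67, Myc, Slamf6, Tcl1 and Tnf). Other genes were chosen after their values were seen. Alternatives were other normalizations, filters, variance models, weights, rows and tests, the replicate number as a block, and each array left out.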

Additional observations from a re-analysis of the deposited data

Results flagged for a closer look

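Values of 190 named genes and 47 gene lists were examined within the exponential phase for a single array far from the other 4 (Dixon's test at the 95% level), and 29 were found. Chance alone flags about 1 in 20 groups. Groups of 3 arrays were not examined.

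On exponential replicate 4, 12 values stood apart. Cd8a (2.96), Cd8b1 (4.33) and the cell-cycle kinase gene Cdk6 (3.25) were below the other 4 arrays, and Cd4 (5.18) and Mki67 (8.48) above. Its list medians stood above for G2/M genes (5.34), CD4 helper and regulatory T-cell genes (3.38), DNA damage response genes (4.68) and histones (3.31), and below for ribosomal proteins (8.97), effector and cytotoxic genes (3.06) and cytokine and JAK/STAT genes (3.19).

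On exponential replicate 1, 8 values stood apart, above the others in Mir431 (2.25), Dusp5 (4.94), Cxcr6 (5.28), the linker histone gene H1f2 (8.09), Igkv5-43 (4.56) and the collagen gene Col3a1 (2.59), and below in Ddias (2.38) and the erythroid factor Gata1 (1.86). On replicate 2 there were 6, above in Napepld (2.41) and in the list median of NK-cell receptors (5.06), and below in Psmd10 (5.06), Bcl3 (2.02), Bak1 (3.08) and Jchain (6.24). On replicate 5 there were 3, Il7r below (5.32) and Trbv1 (8.10) and Ppbp (3.92) above.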

How the results depend on the processing

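The count of called genes was 0 by limma in every setting that kept all arrays, and 0 to 2 with each array left out. The 2 calls arose without chronic replicate 1 alone. The methods' t-test gave 123 genes at a fold over 1.5 and an unadjusted p under 0.05 (58 higher and 65 lower), and 0 after Benjamini-Hochberg adjustment. Genes at an unadjusted p under 0.05 numbered 1246, and 2115 over all rows of the table, 640 without the dimmest 50% of genes (fewer were tested), and 1019 to 1411 with each array left out.

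Same-numbered deviations from the group means correlated at 0.026, 0.161 and -0.037 over genes, and unlike-numbered ones at -0.228 to 0.104. With so few arrays these values cannot show whether the replicate numbers pair the samples. With the replicate block, 0 genes were called and 1334 had an unadjusted p under 0.05.

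Of 3955 recomputed values of named genes, 3919 kept their direction and side of the threshold, 2 passed it (Plbd1 and Tjp1 without chronic replicate 1) and 34 values of 15 genes reversed. The cause was not tested. With the replicate block Cdk6 gave 0.072, Ctla4 0.24, Slamf6 -0.33, Cd8a 0.47, Cd8b1 0.43 and Atm 0.018. With quantile normalization again Ctla4 gave 0.0044 and Atm 0.019, with cyclic loess 0.033 and 0.023, and with array weights Ctla4 gave 0.24. As the mean of rows Mrto4 gave 0.23, Rpl21 -0.036 and Nbn -0.11. With each array left out, the difference ranged from -0.0074 to 0.29 for Cdkn2d, -0.56 to 0.14 for Cdk6, -0.52 to 0.060 for Derl3, -0.48 to 0.46 for Ctla4, -0.19 to 0.56 for Slamf6, -0.24 to 0.21 for Tnf, -0.96 to 0.51 for Cd8a, -0.99 to 0.23 for Cd8b1, -0.25 to 0.11 for Atm, -0.067 to 0.46 for Myc, -1.15 to 0.10 for Mki67 and -1.46 to 0.032 for Gzmb.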

Other observations

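With all arrays, other gene groups showed few members past the unadjusted threshold. Of 21 genes of CD8, CD3 and receptor signalling, 0 passed in either direction (median 0.11), and Cd28, the costimulatory receptor, lay at 7.15 to 8.64 against 6.86 to 7.59 (difference 0.65, SE 0.32, and 0.42 without chronic replicate 2). Of 17 CD4 helper and regulatory T-cell genes 1 was higher, Cxcr5, the receptor that brings helper T-cells to follicles (0.69, SE 0.29, and 1.07 without chronic replicate 1), and 1 lower, Tnfrsf18 (-0.34, SE 0.14). Of 27 cytokine and JAK/STAT genes 1 was higher, Il4ra (0.64, SE 0.21), at 4.96 to 5.88 against 4.73 to 5.25. Without exponential replicate 4, 3 of them were higher, against 3.08% of all genes in that setting. The 24 genes of the BCL2 family and caspases included 1 higher (Casp2, 0.29), the 21 p53 targets 1 lower (Trp53inp1, -0.44, and -0.25 without chronic replicate 3), the 23 interferon response genes 1 higher (Irf7, 0.32) and 1 lower (Mx2, -0.35), and the 13 telomere genes 1 lower (Gar1, -0.28). Of 17 antioxidant genes 2 were higher, Hmox1 and Cat (0.29), and Txnip, a thioredoxin inhibitor that responds to glucose, lay at 4.07 to 7.87 against 7.35 to 9.19 (difference -1.61, SE 0.82, and -0.95 without exponential replicate 4).

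Small nucleolar and nuclear RNAs (56 measured) had a median difference of 0.14 with 2 higher, Rnu3a (1.83, SE 0.74, and 0.90 without chronic replicate 2) and Snora52 (1.17, SE 0.50). Chronic replicate 1 had the highest list median of the 8 leukemia arrays, 5.50, against 3.72 and 4.25 in the other chronic and 4.44 to 5.19 in the exponential arrays. The 31 histone genes (median 0.01), the 14 cyclins and inhibitors (0.05), the 19 heat shock and endoplasmic reticulum stress genes (-0.12) and the 8 platelet markers (-0.06) had 0 members past the threshold. Without exponential replicate 4, 4 of 31 histone genes (median -0.15) and 1 of 14 cyclins and inhibitors were lower and 2 of 19 heat shock and stress genes were higher. In that setting 4 of 20 SLAM and GIMAP genes and 2 of 21 genes of CD8, CD3 and receptor signalling were higher and 0 lower. Of 23 interferon response genes 2 were higher and 2 lower, and of 13 telomere genes 0 passed. Of all genes, 3.08% were higher and 3.99% lower. The 26 MYC target and nucleolar genes had 1 lower (Srm, -0.50, and -0.32 without chronic replicate 3), the 18 NF-kB and TNF genes 1 lower (Bcl3, -0.28), the 20 SLAM and GIMAP genes 1 higher and the 16 inhibitory and costimulatory genes 1 higher (Cd244a in both), the 14 stroma and endothelial markers 1 higher (Pecam1, 0.67), the 9 receptor variable segments 1 lower (Trav7n-5, -0.91, and -0.54 without chronic replicate 3), and the 27 chemokine receptor and integrin genes 2 higher and 2 lower.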
